A study of Mus musculus with 2 samples.

Results

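Genes that encode the enzymes which place or remove methyl groups on histones and other proteins were examined for DNA methylation in liver. By their labels, the samples came from a Pemt-/- and a Pemt+/+ mouse (1 of each), both fed high fat-high sucrose (HFHS) chow. Methylated DNA was captured with a kit, sequenced as 1 library per mouse, and reported as lists of methylated regions, each with the number of sequence reads (tags) that fell in it. The genes were chosen by symbol alone, from the autosomal rows of the longer list of each mouse: Setd, Setdb, Suv, Ehmt, Ezh, Smyd and Nsd1 (lysine methyltransferases), Prdm (the PRDM family), Prmt (arginine methyltransferases) and Kdm (lysine demethylases). These family names follow the symbols only, so a gene placed in a family need not have that activity. The rule found 43 genes of the 14073 autosomal genes in the lists, with 244 of 95650 autosomal regions in Pemt-/- and 355 of 129116 in Pemt+/+.

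The sample records date the livers to 25 weeks of age, with HFHS chow given from 5 weeks of age, whereas the Methods give livers taken after 1 to 4 weeks of feeding in the sentence before the capture. A bisulphite step ahead of the enrichment is named in the records only. The Methods speak of several mice per genotype, whereas the label of each library carries the number of a single mouse, and whether DNA was pooled is not stated. Both mice were male according to the Methods, the Pemt-/- mouse lacked Pemt in the whole body and the Pemt+/+ mouse carried the normal gene. The strain background is not given in the sources used here. With 1 library per genotype there is no replicate and no test, and every comparison is between these 2 libraries, not between the genotypes. The lists hold no RNA, so the labelled tissue could not be checked against marker genes, and DNA of all cell types of the liver was measured together.

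Pemt, the enzyme missing in the Pemt-/- mouse, makes phosphatidylcholine in the liver and takes the methyl groups from S-adenosylmethionine (SAM), the donor that DNA, lysine and arginine methyltransferases use as well. Lysine methyltransferases carry a SET domain in most cases. Ehmt1 and Ehmt2 (G9a) methylate lysine of histone H3 in repressed chromatin, Setd2 marks the bodies of transcribed genes, Setd1a acts at active promoters, Suv420h1 and Suv420h2 methylate histone H4, and Nsd1 places the mark on H3 that guides the DNA methyltransferase Dnmt3a. PRDM proteins are zinc finger proteins with a PR domain related to SET, and many act as DNA-binding transcription regulators. Arginine methyltransferases modify histones and RNA-binding proteins, with Prmt1 as the most active member in most tissues and Prmt5 as the main symmetric one. Lysine demethylases remove the marks again. Methylation of DNA in a promoter CpG island is known to accompany silencing, whereas methylation inside the body of a gene is common in expressed genes.

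Methylated regions of the enzyme genes were more numerous in Pemt+/+ than in Pemt-/-, as were those of all genes. Tags in the regions of the enzyme genes summed to 4206 in Pemt-/- and 7953 in Pemt+/+, and those of all autosomal regions to 1554629 and 2796810. Of the 43 genes, 28 had more regions in Pemt+/+, 9 had equal numbers and 6 had more in Pemt-/-, beside 8754 and 1592 of 14073 autosomal genes with more in Pemt+/+ and in Pemt-/-. The median enzyme gene with a region had 3 regions in Pemt-/- and 5 in Pemt+/+, beside 2 and 3 for all genes. The enzyme genes were long, with a median of 45.5 kb beside 21.7 kb for all genes. Per 10 kb of gene and flanks the order of the medians turned, to 0.440 regions in Pemt-/- and 0.672 in Pemt+/+ for the enzyme genes beside 0.520 and 0.720 for all genes.

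**Figure D1:**
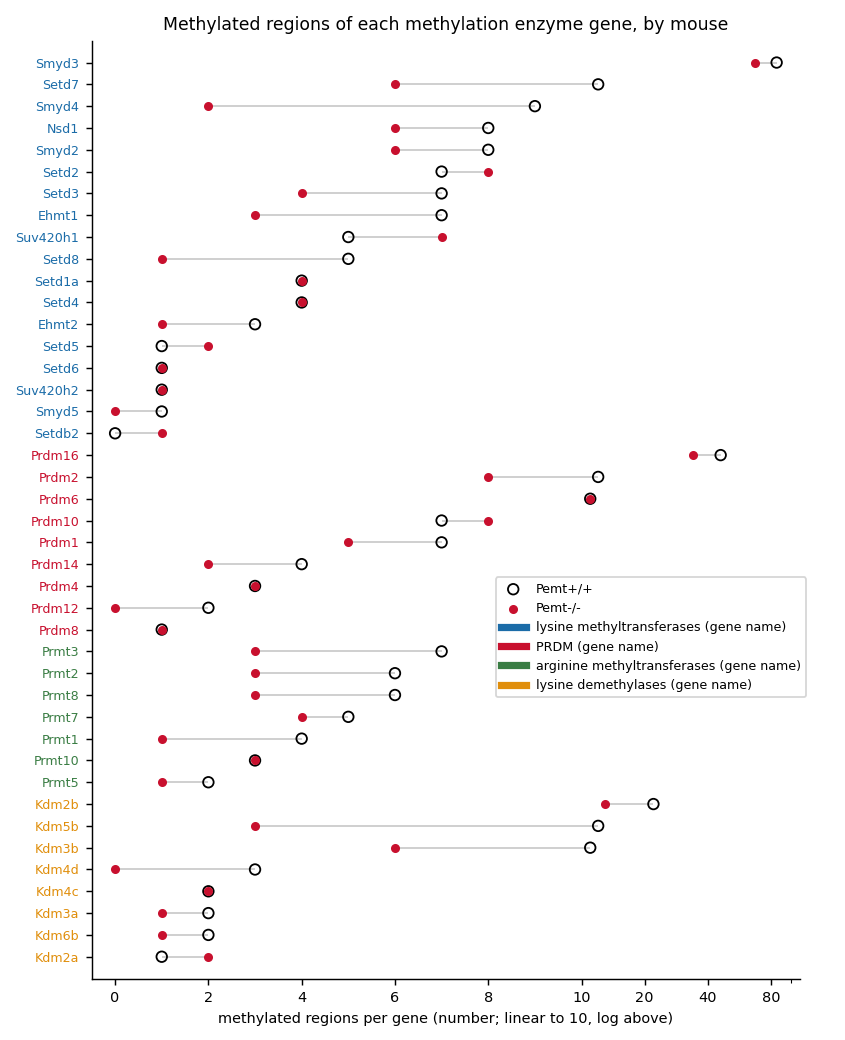
Number of methylated regions of 42 of the 43 genes (horizontal axis, linear to 10 and log above) in Pemt-/- (filled) and Pemt+/+ (open), with gene names coloured by family. Smyd3 and Prdm16 stand far to the right in both mice, and the Pemt+/+ number is the higher one in most genes.

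A pair of very long genes held a large part of these regions. Smyd3, a lysine methyltransferase that acts on histones and on the kinase MAP3K2, had 67 regions with 1271 tags in Pemt-/- and 85 regions with 2187 tags in Pemt+/+. Prdm16, the regulator of brown fat and of stem cells, had 34 regions with 686 tags in Pemt-/- and 46 regions with 1252 tags in Pemt+/+. Together they gave 41.4% of the enzyme gene regions in Pemt-/- and 36.9% in Pemt+/+, and shares over all enzyme genes are therefore also given without them. Per 10 kb, Smyd3 had 1.14 and 1.45 regions and Prdm16 had 0.996 and 1.35, so both were also dense in regions for their length.

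Regions lay along most of Smyd3, but none was listed in the first stretch after its start. The first region inside the gene was centred 32.9 kb after the start in Pemt-/- and 32.7 kb after it in Pemt+/+. Beyond this gap, tags per region were higher in the parts nearer the start in both mice. The transcript of 563 kb, from position 181448134 down to 180885169 of chromosome 1 in the mouse genome build mm9, was split into 4 parts of equal length. The part next to the start had 18 regions with 463 tags in Pemt-/- and 23 regions with 768 tags in Pemt+/+. The part next to the 3′ end had 13 regions with 180 tags in Pemt-/- and 15 regions with 280 tags in Pemt+/+. The parts between them came to 344 and 256 tags in Pemt-/- and to 615 and 462 in Pemt+/+, so the order along the gene was the same in both libraries.

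**Figure D2:**
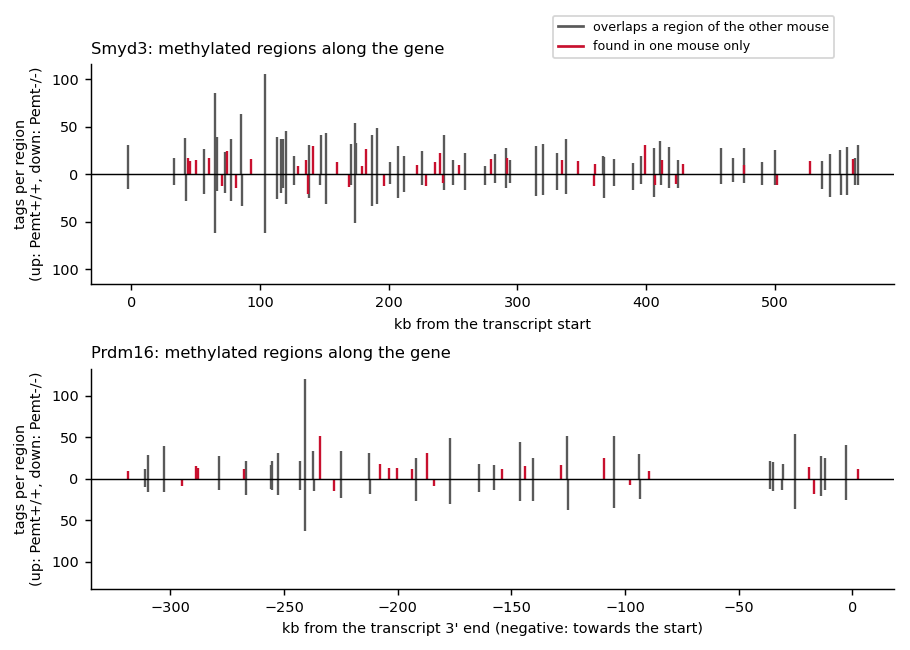
Tags of each methylated region (vertical axis, Pemt+/+ upwards and Pemt-/- downwards) against its distance in kb from the Smyd3 transcript start (upper panel) or from the Prdm16 transcript 3′ end (lower panel). Most tall regions of one mouse face a region of the other, and the regions found in 1 mouse only (red) are mostly low, the highest being a Prdm16 region of 51 tags in Pemt+/+.

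Next in number of Pemt+/+ regions came Kdm2b, a demethylase whose zinc finger binds unmethylated CpG, with 13 regions (233 tags) in Pemt-/- and 22 regions (455 tags) in Pemt+/+. Prdm2 had 8 regions in Pemt-/- and 12 in Pemt+/+. Setd7, a methyltransferase of H3 and of many other proteins, had 6 and 12 regions, and Kdm5b, a demethylase of the promoter mark on H3 lysine, had 3 and 12. These genes were picked for their Pemt+/+ number, so its excess in them is no finding. The reverse was seen in Setd2 (8 in Pemt-/-, 7 in Pemt+/+), Suv420h1 (7 and 5), Prdm10 (8 and 7), Setd5 (2 and 1) and Kdm2a (2 and 1), each by a small number.

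Of the 43 genes, 39 had a region in both mice. Setdb2, a methyltransferase that acts on the repressive lysine of histone H3, had a region in Pemt-/- only, of 18 tags, inside the gene at chr14:60037883-60038312. Kdm4d had 3 regions with 32 tags, Prdm12 had 2 with 28 and Smyd5 had 1 with 12 in Pemt+/+ only. A further 15 autosomal genes whose RefSeq symbol meets the rule had no row in the lists as used here. They were Ezh1 and Ezh2, the catalytic subunits of the Polycomb complex, Setdb1 and Suv39h2, which methylate H3 in heterochromatin, Setd1b, Smyd1, Prmt6, Kdm1b, Kdm4a, Kdm4b, Kdm5a, Prdm9, Prdm11, Prdm13 and Prdm15. The lists hold only regions above the caller's minimum, so this gives no level for them. Kdm1a was listed under its older symbol Kdm1 and thus lay outside the rule, with 3 regions and 51 tags in Pemt-/- and 6 regions and 100 tags in Pemt+/+.

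Methylation at the start of these genes was nearly absent from the lists. Nsd1 was the only enzyme gene with a region across a transcript 5′ end, in both mice. The Nsd1 region had 19 tags at chr13:55310979-55311564 in Pemt-/- and 37 tags at chr13:55310960-55311596 in Pemt+/+, with fold enrichments over background of 27.94 and 38.68. This was 1 of 40 genes with regions in Pemt-/- and 1 of 42 in Pemt+/+, beside 1.76% and 2.42% of all autosomal genes, a share near the background. The other 5 Nsd1 regions in Pemt-/- and 7 in Pemt+/+ lay inside the gene.

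Most regions lay in gene bodies. In Pemt-/-, 85.7% of the enzyme gene regions (95% Wilson interval 80.7 to 89.5, 209 of 244) lay inside a transcript, beside 71.3% of regions of all genes. In Pemt+/+ the shares were 83.7% (79.5 to 87.1, 297 of 355) and 70.8%. Without Smyd3 and Prdm16, which are long and thus have little flank for their length, the enzyme gene shares were 76.9% and 75.4%, nearer to those of all genes. No intervals are given for these shares, and whether the length of the other enzyme genes bears on them was not tested. Regions upstream made up 6.15% in Pemt-/- and 7.32% in Pemt+/+, beside 13% and 13.3% for all genes, and regions downstream made up 6.15% and 7.89%, beside 14% and 14.4%. These intervals, and all others given here, cover counting error only, since reads of a library without molecular identifiers are not independent molecules.

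**Figure D3:**
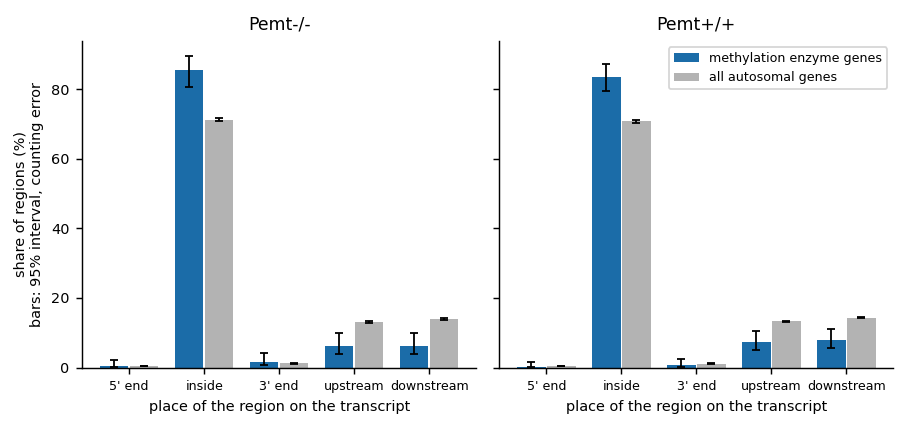
Share of regions (percent, with 95% Wilson intervals for counting error) by place on the transcript for the enzyme genes (blue) and all autosomal genes (grey), for each mouse. The enzyme genes show a higher share inside the transcript, 85.7% beside 71.3% in Pemt-/- and 83.7% beside 70.8% in Pemt+/+, and lower shares upstream and downstream. Without Smyd3 and Prdm16 (not drawn) the shares inside were 76.9% and 75.4%.

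Within 2 kb before a transcript start there were 5 enzyme gene regions in Pemt-/- and 4 in Pemt+/+, or 2.05% (0.878 to 4.71) and 1.13% (0.439 to 2.86) of their regions, beside 1.98% and 2.01% of the regions of all genes, which lie within these intervals. The nearest were 980 bp before Suv420h2 in Pemt-/- (8 tags, not found in Pemt+/+) and 1242 bp before Kdm2b in Pemt+/+ (17 tags), which overlapped a Pemt-/- region of 9 tags. Smyd2, a methyltransferase of histones and of p53, had overlapping regions 1844 bp before its start in Pemt-/- (20 tags) and 1908 bp before it in Pemt+/+ (15 tags). This was one of the few places with more tags in Pemt-/-. Ehmt2 had overlapping regions of 8 tags in Pemt-/- and 9 tags in Pemt+/+, at 1888 and 1919 bp. Ehmt1 had a region of 9 tags in each mouse, 1086 bp before the start in Pemt-/- and 1785 bp before it in Pemt+/+, which did not overlap.

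The promoters themselves were rich in CpG, the dinucleotide that the capture depends on. The RefSeq promoter table (build GRCm38.p6, 250 bases before to 50 after each start) held 34 of the 43 genes, with 2 genes left out for their chromosome. In these windows the letters CG, which read the same on both strands, occurred at a median of 28 times per gene (1 in Setd5 to 51 in Setd8), beside 15 over 17492 protein-coding genes. At least 10 CG were found in 33 of the 34 genes (97.1%) and in 59.5% of protein-coding genes, and at least 1 was found in 94.6% of all 32851 windows. Windows are shown for Smyd2 (43 CG), which had a region upstream and a region inside but none across its start in either mouse. Setd7 (21 CG), with 12 Pemt+/+ regions but none across its start, is shown as well. The third is Setd5, whose window held the fewest CG (1). Only 1 window per gene was used, so any other start of a gene, in Setd5 too, is not covered. The windows are written 5′ to 3′ on the strand of the gene, with each CG in capitals.
Smyd2, chr1:189922242-189922541, minus strand: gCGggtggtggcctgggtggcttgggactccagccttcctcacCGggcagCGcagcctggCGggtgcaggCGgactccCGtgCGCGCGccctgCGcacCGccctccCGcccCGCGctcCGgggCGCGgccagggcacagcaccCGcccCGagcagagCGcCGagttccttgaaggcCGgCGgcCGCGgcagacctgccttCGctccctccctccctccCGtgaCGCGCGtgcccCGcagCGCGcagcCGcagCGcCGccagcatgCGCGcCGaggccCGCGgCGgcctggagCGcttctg
Setd7, chr3:51560774-51561073, minus strand: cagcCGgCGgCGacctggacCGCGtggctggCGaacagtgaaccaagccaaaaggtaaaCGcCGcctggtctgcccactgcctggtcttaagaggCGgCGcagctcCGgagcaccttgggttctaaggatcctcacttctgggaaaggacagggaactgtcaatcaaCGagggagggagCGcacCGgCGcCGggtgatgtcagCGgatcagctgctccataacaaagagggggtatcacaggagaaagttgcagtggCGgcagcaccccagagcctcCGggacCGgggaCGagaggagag
Setd5, chr6:113104685-113104984, plus strand: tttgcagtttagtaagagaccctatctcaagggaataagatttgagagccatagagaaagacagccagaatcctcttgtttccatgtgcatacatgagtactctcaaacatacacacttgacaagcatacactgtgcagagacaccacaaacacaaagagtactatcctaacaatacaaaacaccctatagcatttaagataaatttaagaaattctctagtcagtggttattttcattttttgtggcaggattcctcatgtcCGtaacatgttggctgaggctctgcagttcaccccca
The letters show how densely CG sits in the first 2 windows and how it is nearly missing in the third. The positions belong to GRCm38.p6, not to mm9, and were not set against the regions.

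At the other end of the genes, regions crossed a transcript 3′ end in Prdm2, Prdm6 and Prmt10 in both mice. Tags numbered 11 and 31 for Prdm2 in Pemt-/- and Pemt+/+, and Prdm6 regions had 72 and 119, and the Prmt10 regions 20 and 62. Suv420h1 had such a region in Pemt-/- only, of 13 tags. More tags in Pemt+/+ is also the order of most autosomal pairs. Regions across a 3′ end made up 1.64% of the enzyme gene regions in Pemt-/- and 0.845% in Pemt+/+, beside 1.21% and 1.11% for all genes.

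Most regions of Pemt-/- were also present in Pemt+/+, and the reverse held for fewer. Of the 244 Pemt-/- regions, 197 (80.7%, 75.3 to 85.2) shared 1 bp or more with a Pemt+/+ region, beside 83.3% of all autosomal regions. Of the 355 Pemt+/+ regions, 199 (56.1%, 50.9 to 61.1) overlapped a Pemt-/- region, beside 61.7% of all. Among regions linked to a gene the shares were 82.3% and 60.4%, both within the intervals, whereas the 61.7% of all Pemt+/+ regions lies above its interval. Without Smyd3 and Prdm16 the enzyme gene shares were 78.3% (70.9 to 84.3) and 50% (43.5 to 56.5). The latter interval lies below the 60.4% of gene-linked Pemt+/+ regions. The Pemt+/+ list is the longer one, and when it was reduced to its 95650 regions with the highest scores the shares became 70.5% and 68.4%, beside 72.3% and 72.0% for all autosomal regions.

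Read by tag number, regions found in 1 mouse only were more frequent among the enzyme genes than among all genes in some classes. In Pemt-/-, regions of 13 to 19 tags were found in that mouse only in 18 of 83 cases (21.7%, 14.2 to 31.7), beside 10.1% of all gene-linked regions of that size. In Pemt+/+, regions of up to 12 tags were found in that mouse only in 76 of 87 cases (87.4%, 78.8 to 92.8), beside 69.4%. The median fold enrichment was lower for the enzyme genes than for all gene-linked regions in these classes (16.42 beside 18.01 and 13.61 beside 14.45). It was lower in the other classes too, such as Pemt+/+ regions of 13 to 19 tags (14.45 beside 16.69) and Pemt-/- regions of up to 12 tags (14.37 beside 15.78). The exception was Pemt-/- regions of 30 tags or more (20.64 beside 20.03). Whether fold enrichment bears on the shares was not tested. In further classes the interval of the enzyme gene share included the share of all gene-linked regions. In Pemt-/- these were regions of up to 12 tags (28.7% beside 31.4%) and of 20 to 29 tags (4.17% beside 2.51%). In Pemt+/+ they were regions of 13 to 19 tags (48.7% beside 46.2%) and of 20 to 29 tags (21.6% beside 21.4%). Many of the regions come from the same genes, and no class was tested. No enzyme gene region of 30 tags or more was found in Pemt-/- only (0 of 19), beside 0.827% of gene-linked regions, and 9 of 81 (11.1%, 5.96 to 19.8) were found in Pemt+/+ only, beside 5.93%.

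The regions found in 1 mouse only were small, with a median of 11 tags in 47 Pemt-/- regions and 13 tags in 156 Pemt+/+ regions, beside 16 and 25 tags for regions found in both. The highest Pemt-/- one, of 27 tags, lay 9411 bp after the end of Setd2 and was linked to Nradd as well. The next lay inside Smyd3 (21 tags) and inside Kdm2a (19 tags), followed by regions of 18 tags each inside Setd4, Setdb2, Prdm16 and Smyd2. The region of Setdb2 had the highest fold enrichment of these, 28.69.

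Among the Pemt+/+ regions without a Pemt-/- partner, the highest lay inside Prdm16 at chr4:153923739-153924779 and held 51 tags, and the nearest Pemt-/- region, of 15 tags, was 2278 bp away. The next lay inside Smyd2 at chr1:191737438-191738499 and held 49 tags. Its nearest neighbour in Pemt-/- was the Smyd2 region of 18 tags found in that mouse only, 858 bp away. Smyd4 held a region of 34 tags, and regions of 31 tags lay in Prdm16, Setd7, Smyd3 and Prmt5. Smyd4 was uneven in number of regions, with 2 regions and 30 tags in Pemt-/- and 9 regions and 175 tags in Pemt+/+. In its overlapping regions the tags were 30 and 51, a ratio of 0.588, or 0.870 of that of the median gene.

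Where a region of one mouse overlapped a single region of the other and the reverse, the tags could be set side by side in a pair. The enzyme genes had 193 such pairs, with 3538 tags in Pemt-/- and 5427 in Pemt+/+, so that Pemt-/- gave 39.5% of the tags (38.5 to 40.5) beside 39.9% over all 78303 autosomal pairs. The summed ratio of Pemt-/- to Pemt+/+ tags was 0.652 for the enzyme genes and 0.663 for all pairs. The median pair had a ratio of 0.667 (quartiles 0.529 and 0.821), beside 0.682 (0.545 and 0.850) for all pairs. Pemt-/- had more tags in 19 of 193 pairs (9.84%), beside 10.4% of all pairs. The lists give no library totals. A ratio below 1 therefore does not by itself give less methylation in Pemt-/-, and ratios are read against those of all genes. Counted over all regions, paired or not, Pemt-/- gave 34.6% of the enzyme gene tags (33.8 to 35.4), beside 35.7% over all autosomal regions.

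**Figure D4:**
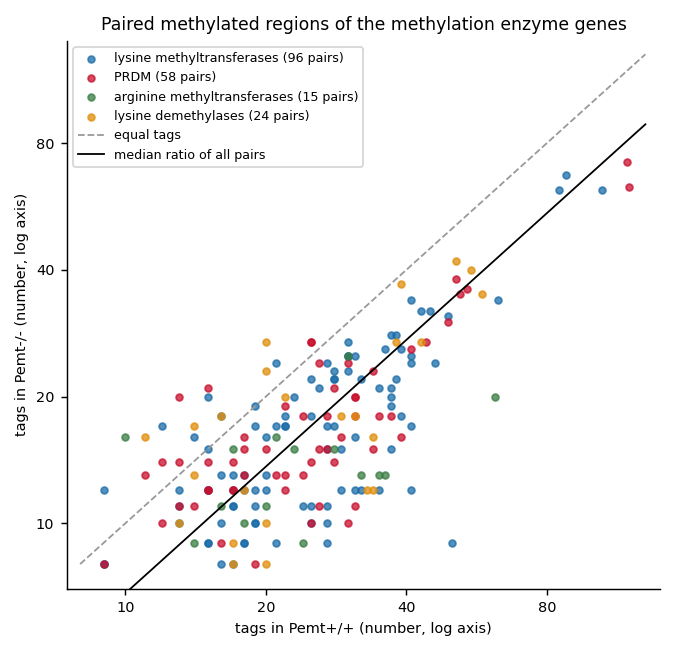
Tags of the 193 paired regions of the enzyme genes in Pemt-/- (vertical) against Pemt+/+ (horizontal), both on log axes, coloured by family, with the line of equal tags (dashed) and the median ratio of all autosomal pairs, 0.682 (solid). The points scatter around the solid line, 19 lie above the dashed one, and the Setd1a pair of 9 and 50 tags lies lowest to the right.

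The pairs with the most tags had ratios near those of all pairs. The pair at the 3′ end of Prdm6, a regulator of smooth muscle genes, had 72 tags in Pemt-/- and 119 tags in Pemt+/+. A Prdm16 pair held 63 tags at chr4:153930753-153931449 in Pemt-/- and 120 at chr4:153930701-153931549 in Pemt+/+, and it lay within 10 kb of the Prdm16 region of 51 tags found in Pemt+/+ only. A Smyd3 pair held 62 and 105 tags, and a Setd2 pair held 67 and 88. Their ratios were 0.605, 0.525, 0.590 and 0.761, each with fewer tags in Pemt-/-, beside a median of 0.682 over all pairs.

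By family, the summed ratio of paired tags ran from 0.547 to 0.712. The 18 lysine methyltransferase genes had 124 regions in Pemt-/- and 168 in Pemt+/+, and in their 96 pairs the tags summed to 1758 and 2712, a ratio of 0.648. The 10 PRDM genes had 74 and 99 regions, with 1094 and 1662 tags in 58 pairs and a ratio of 0.658. The 8 demethylase genes had 28 and 55 regions, with 475 and 667 tags in 24 pairs and a ratio of 0.712. The 7 arginine methyltransferase genes had 18 and 33 regions, with 211 and 386 tags in 15 pairs and a ratio of 0.547, the lowest of the families. This family was uneven, with ratios of 0.351 in Prmt10 and 0.368 in Prmt8. Its other compared genes ran from 0.635 (Prmt7) to 0.979 (Prmt2), beside 0.663 for all pairs. Pemt-/- gave 35.3% of the paired tags of the arginine methyltransferase genes (31.6 to 39.3) and 41.6% of those of the demethylase genes (38.8 to 44.5), beside 39.9% over all pairs. The interval of the former lies below the share over all pairs and that of the latter includes it, and neither was tested, since pairs of a gene are not replicates of a mouse.

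Summed by gene, 35 enzyme genes had at least 20 paired tags and could be read against the 11705 autosomal genes that had as many. Their median ratio was 0.654 (quartiles 0.596 and 0.747), beside 0.676 (0.587 and 0.787) for all genes, with 19 below and 16 above the median gene. A gene was counted as past the fold when its ratio was at least 1.5 times above or below the median gene, which is a rule of size and not a test. Past it upwards lay 1 enzyme gene of 35 (2.86%), beside 5.90% of all genes, and past it downwards lay 3 (8.57%), beside 5.25% of all genes. Both counts are near the background.

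**Figure D5:**
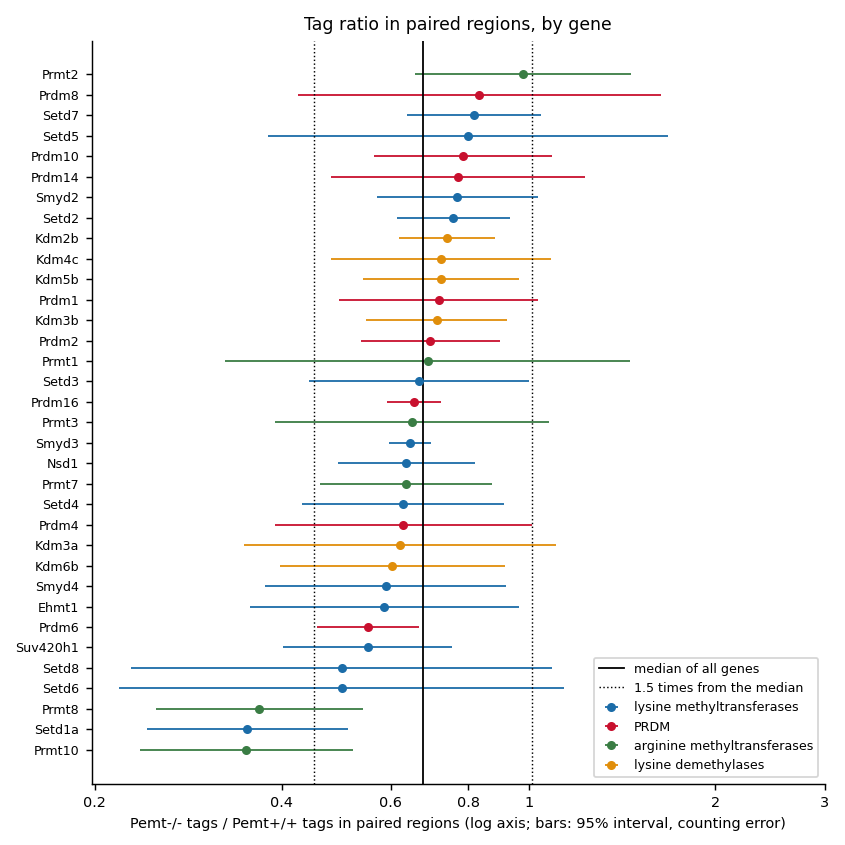
Ratio of Pemt-/- to Pemt+/+ tags in paired regions for 34 of the 35 enzyme genes with at least 20 paired tags (log axis), with 95% Wilson intervals for counting error, the median of all genes (0.676, solid) and the limits 1.5 times above and below it (dotted). Prmt10, Setd1a and Prmt8 lie below the lower limit, and the narrow intervals of Smyd3 and Prdm16 include the median.

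The genes past the fold downwards were Prmt8, Setd1a and Prmt10. Prmt8, a membrane-bound arginine methyltransferase known from brain, had 3 pairs with 13, 13 and 9 tags in Pemt-/- and 36, 35 and 24 tags in Pemt+/+. Its ratio of 0.368 was 0.545 of that of the median gene, and all its pairs were alike, with ratios of 0.361, 0.371 and 0.375. A further 3 Prmt8 regions, of 26, 10 and 9 tags, were found in Pemt+/+ only.

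Setd1a had 3 pairs as well, with 17, 9 and 11 tags in Pemt-/- and 28, 50 and 27 tags in Pemt+/+, a ratio of 0.352 and 0.521 of that of the median gene. The middle pair had the lowest ratio of the 193 enzyme gene pairs, 0.18, and 0.0102% of all autosomal pairs had a lower one. Since the pair is named for being the lowest, its low rank is in part due to that choice. Its regions began at neighbouring bases but were 296 bp long in Pemt-/- and 646 bp long in Pemt+/+, and per 100 bp they held 3.04 and 7.74 tags. Without this pair Setd1a stood at 0.753 of the median gene, within the fold.

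Prmt10 had 2 pairs, with 13 and 20 tags in Pemt-/- and 32 and 62 tags in Pemt+/+, a ratio of 0.351 and 0.519 of that of the median gene. The pair of 20 and 62 tags lay across the 3′ end of the transcript, and per 100 bp its regions held 2.61 and 7.05 tags. Without it the remaining pair stood at 0.601 of the median gene, still past the fold. Prmt10 and Prmt8 were 2 of the 7 arginine methyltransferase genes. Of the others, Prmt1 had 1 pair of 11 and 16 tags and 4 regions in Pemt+/+, Prmt2 had 47 and 48 paired tags, Prmt3 24 and 37, and Prmt7 61 and 96. Prmt5 had no pair, with 1 region of 10 tags in Pemt-/- and regions of 11 and 31 tags in Pemt+/+.

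Of the genes that could not be compared, Ehmt2 had a single pair of 8 and 9 tags, and Kdm2a, Kdm4d, Prdm12, Prmt5, Setdb2, Smyd5 and Suv420h2 had no pair. Kdm2a, the relative of Kdm2b that binds unmethylated CpG in the same way, had 2 regions with 28 tags in Pemt-/- and 1 region with 11 tags in Pemt+/+, none overlapping. Suv420h2 had 1 region in each mouse, of 8 and 14 tags, also without overlap. In the remaining genes within the fold the ratio ran from 0.5 in Setd6 and Setd8 to 0.979 in Prmt2. Setd6 and Setd8 each had 1 pair, of 8 and 16 tags and of 9 and 18 tags. Both pairs lay downstream of the gene and were linked to other genes as well. Smyd3, with 1052 and 1633 tags in 54 pairs, and Prdm16, with 627 and 959 tags in 29 pairs, had ratios of 0.644 and 0.654, near that of the median gene.

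Each mouse also had a shorter list, whose regions carry a false discovery rate (FDR). The records do not state what the shorter lists compare. In the shorter Pemt-/- list, 4 of 40 enzyme genes (10%) had a region, beside 9.16% of all genes with regions. These were Kdm4c (27 tags), Setd2 (13 tags), Smyd3 (11 tags) and Prdm16 (9 tags), each with a deposited FDR of 100%. The Kdm4c region overlapped a Pemt+/+ region of 20 tags, and the others overlapped none.

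In the shorter Pemt+/+ list, 16 of 42 enzyme genes (38.1%, 25.0 to 53.2) had a region, beside 19.5% of all genes with regions, with an FDR from 24.0% to 35.6%. Counting only regions inside or overlapping a transcript, 13 enzyme genes had one. The same count over all genes is not given here. The share of all genes in this list rises with the number of regions a gene has, from 7.26% of genes with 1 or 2 Pemt+/+ regions to 17.1% with 3 to 5, 29.9% with 6 to 9 and 51.4% with 10 or more. Among the enzyme genes these classes gave 2 of 11, 6 of 11, 4 of 12 and 4 of 8. In the classes of 6 to 9 and of 10 or more the enzyme genes were thus near the share of all genes, and in the classes of 1 or 2 and of 3 to 5 they were above it, on few genes. By family, 7 lysine methyltransferase, 2 PRDM, 5 arginine methyltransferase and 2 demethylase genes were in this list.

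The lysine methyltransferase genes in the shorter Pemt+/+ list were Smyd2 with regions of 49, 19 and 9 tags, Smyd3 with 31, 16 and 15, Setd7 with 31 and 28, Setd1a with 50, Ehmt2 with 19, Smyd5 with 12 and Setd3 with 10. The arginine methyltransferase genes were Prmt10 with 62 tags, Prmt5 with 31, Prmt7 with 20, Prmt1 with 12 and Prmt8 with 10. Prdm16 with 51 tags, Prdm10 with regions of 10 and 10, Kdm2b with 26 and Kdm4d with 12 made up the rest. Of these regions those of Setd1a and Prmt10 overlapped a Pemt-/- region, of 9 and 20 tags, and the others overlapped none. The Prdm16 region had the lowest FDR of them, 23.96%. Those of Ehmt2, Smyd5 and Prmt1 and the Smyd2 region of 19 tags lay outside the transcript, 5855 to 6420 bp from it. The Ehmt2 and Prmt1 regions were linked to other genes as well.

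Related genes outside the symbol rule lay near the median gene in most cases. Of 34 symbols of other histone methylation genes (older and newer names of some genes included), 16 were listed, with 108 regions in Pemt-/- and 134 in Pemt+/+. Of these, 14 could be compared, and none was past the fold in either direction. The median ratio was 0.704. They included Mll1, with 12 and 17 regions, and the Polycomb partner Jarid2, with 12 and 13.

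Genes of methyl donor supply were listed for 17 of 21 symbols, with 49 regions in Pemt-/- and 77 in Pemt+/+. Pemt itself had 2 regions with 50 tags in Pemt-/- and 4 regions with 87 tags in Pemt+/+, and the 2 pairs held 50 and 60 tags. Whether these lie in the deleted part of the gene was not checked, so they do not test the genotype. Mat1a, the liver enzyme that makes SAM, had no row in the lists as used here. Mat2a, which makes SAM outside the liver and in growing cells, had 20 and 54 paired tags, a ratio of 0.370, and was the only one of 14 genes compared that was past the fold, downwards, beside 5.25% of all genes. The median ratio of the 14 genes was 0.765.

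Of 13 symbols of DNA methylation genes, 10 were listed, and Mbd3, a methyl-CpG-binding domain protein, was the only one of 9 compared that was past the fold, downwards, with 18 and 42 tags, again beside 5.25% of all genes. Dnmt1, the maintenance DNA methyltransferase, had 7 regions with 98 tags in Pemt-/- and 7 with 130 in Pemt+/+, and its paired ratio was 0.717. Dnmt3a, a de novo DNA methyltransferase, had 8 regions with 122 tags and 7 with 158, and its paired ratio was 0.680. The median ratio of the 9 genes was 0.680. No gene of the 3 related lists had a region across a transcript 5′ end, beside the 1.76% and 2.42% of all genes.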

How the data were processed

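Each library was made by the authors from liver DNA, of 1 mouse by its label, with the EpiXplore kit and the TruSeq ChIP kit and sequenced on the Genome Analyzer IIx. The submitters' processing notes name Bowtie, CASAVA version 1.8.2 and the build mm9. Region names have the form used by MACS; its version, its control and the handling of duplicate reads are not given in the sources used here. Tags are deposited counts of reads per region, not normalized. The deposited fold enrichment is a ratio over background, the deposited score is 10 times the −log10 p-value, and the deposited FDR is a percent. Library totals are unknown.

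The authors deposited 2 lists per mouse, with a row for each region and RefSeq transcript up to 10 kb apart. Here each region was counted 1 time per gene, overlap meant at least 1 bp, and pairs were regions that overlapped a single region in the other mouse, counted for a gene when either region was linked to it. Genes with at least 20 paired tags were compared with the median gene at a fold of 1.5. Positions of transcript ends were derived from the distances in the lists. RefSeq tables (GRCm38.p6) gave names, lengths and promoters only, and regions per 10 kb use the gene length with 10 kb on each side. Shares have Wilson 95% intervals. Python version 3.11.15, pandas version 2.3.3, numpy version 2.4.6, scipy version 1.17.1 and matplotlib version 3.10.9 were used, and overlaps and ratios were tested on simulated data. The genes and lists were chosen with earlier results of these data known. Genes named with values were the 6 with the most Pemt+/+ regions, those with a region across a 5′ end, in a shorter list or past the fold, the 4 highest unshared regions of each mouse and the 4 highest pairs, textbook members, and Pemt, Mat1a, Dnmt1 and Dnmt3a. Values of 1 gene are not reported here. Other genes given as examples were chosen after their values were seen. Alternatives were a stricter score, an overlap of 50%, lists of equal size, transcript regions only, no Prdm genes and pairs of at least 20 tags, and leaving out Smyd3 and Prdm16 was added after seeing the data.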

Additional observations from a re-analysis of the deposited data

Results flagged for a closer look

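Enzyme genes on the sex chromosomes lie outside the autosomal rule and were not part of any comparison above, but regions were listed for some of them. Kdm5d, a demethylase gene of chromosome Y, had 84 tags in 4 regions in Pemt-/- and 119 tags in 4 regions in Pemt+/+. Kdm6a on chromosome X had 12 tags in 1 region in Pemt-/-, with no row in the Pemt+/+ list as used here. Suv39h1 on chromosome X had 9 tags in Pemt-/- and 12 tags in Pemt+/+, 1 region in each. They are given because they hold signal in rows that the comparisons did not use.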

How the results depend on the processing

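No paired analysis was possible because there is 1 library for each genotype, and for the same reason no library could be left out. Of the values recomputed under the alternatives, 32 moved by less than their counting interval, or by at most 1.5 times for a count, and 15 moved by more. When the lists were reduced to the upper 50% of scores, the enzyme genes kept 113 regions in Pemt-/- and 161 in Pemt+/+, which follows from the shorter lists, the share of Pemt-/- regions found in the other mouse was 75.2%, the share of tags from Pemt-/- was 33.6%, the paired ratio was 0.683 and the number of genes past the fold upwards was 0. With an overlap of 50% of both regions, 73.8% (Pemt-/-) and 50.7% (Pemt+/+) were shared between the mice. With lists of equal size these shares were 70.5% and 68.4%, and the share of tags from Pemt-/- was 38.9%. Without Smyd3 and Prdm16, 50% of Pemt+/+ regions were shared, the share of tags from Pemt-/- was 33.3%, and 76.9% and 75.4% of regions lay inside a transcript in Pemt-/- and Pemt+/+. Causes not given here were not tested. The number of genes past the fold downwards was between 2 and 4 in the alternatives that were run. Depth limits these lists in that regions below the caller's minimum are not listed, so a region found in 1 mouse only may hold tags below that minimum in the other.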
